A study of Mus musculus with 2 samples.

Results

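The genes described are 10 transcription factors of T cell memory and exhaustion: Tcf7, Lef1, Bach2, Satb1, Tox, Tox2, Tbx21, Eomes, Batf and Klf2. They were chosen by symbol, and each symbol matched 1 row among the 32245 gene symbols of 2 single-cell RNA-seq libraries made in droplets from mouse tumours. The Control library came from wild-type mice on a control diet, and the Sitagliptin library from wild-type mice on a diet containing sitagliptin, a drug that blocks the peptidase DPP4. All mice carried tumours of MC38-OVA, which is a colon carcinoma line of the mouse with ovalbumin added as a model antigen, and both libraries were made with a 5' kit from tumour cells enriched for CD45, the common surface protein of white blood cells, on magnetic columns. The sources used here do not give the sitagliptin dose, the length of the diet, the age and sex of the mice or the number of mice behind each library. With 1 library per diet there was no replicate error and no test, so each comparison below is between these 2 libraries, and each 95% interval covers counting error only.

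T cells that meet antigen for a long time, as in a tumour, pass from a self-renewing state to an exhausted state with high inhibitory receptors. Tcf7 (the protein TCF1), its paralog Lef1, Bach2 and Satb1 are known for holding T cells in naive, memory or stem-like states, and Klf2 for the genes that let T cells circulate. Tox and its paralog Tox2 are known for the exhausted state, the paralogs Tbx21 (T-bet) and Eomes for effector and NK cell programmes, and Batf for acting with AP-1 and IRF proteins downstream of antigen receptor signals.

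Cells were classed by unique molecular identifiers (UMIs, counts of distinct RNA molecules) of marker genes, none of them among the 10 factors. The Control library held 8694 barcodes and the Sitagliptin library 9766, with at least 2001 UMIs in each barcode. T cells needed at least 3 UMIs over 6 T cell receptor and CD3 genes. With no limit on macrophage UMIs this gave 920 Control and 1018 Sitagliptin cells, of which 579 and 634 were CD8 T cells. Barcodes with 3 or more UMIs over 8 macrophage genes were most of these, and a larger part of them in the Control library. T cells here needed fewer than 3 such UMIs, which gave 262 and 434 cells, and the ratios describe only these. Among them were 166 and 274 CD8 T cells (Cd8a 743 and 585 UMIs per 1000000 of the class, CPM, and no Cd4 or Foxp3 by definition), 77 and 126 T cells without a UMI of Cd4, Foxp3, Cd8a or Cd8b1, 8 and 14 CD4 T cells and 7 and 14 regulatory T cells. NK cells, without UMIs of Cd3d, Cd3e, Cd3g or Trac, numbered 60 and 105 (Klrb1c 327 and 404 CPM). The NK rule did not bar Trbc1 or Trbc2, so a barcode could count both as an NK cell and as a T cell. The number of such barcodes is not given here. The T cells without Cd4 or Cd8 also carried NK genes, with Klrb1c at 174 and 212 CPM and Ncr1 at 58.0 and 61.7 CPM, and Trdc of gamma-delta T cells at 61.0 and 25.4 CPM, so this class is named by its rule alone. Median depth was 3287.5 and 3483 UMIs per CD8 T cell, 3803 and 3896 per NK cell and 6647.5 and 7875 per macrophage. Only 132 barcode sequences occurred in both libraries, 2 and 4 of them in CD8 T cells.

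Most of the factors were near absent from macrophages, the most numerous class, which served as a limited measure of free RNA. Macrophages were called without any UMI of the T cell marker genes, so barcodes with free RNA of those genes were left out by rule. This rule can lower the macrophage levels and raise the ratios to them. Barcodes with at least 3 T cell and 3 macrophage UMIs were left out of T cells and macrophages. They had Tcf7 at 8.23 (Control) and 8.70 CPM (Sitagliptin) and Tox at 29.2 and 39.9 CPM. The part of free RNA in these levels was not tested. Among 2640 Control and 3395 Sitagliptin macrophages, Tcf7 stood at 1.02 and 0.647 CPM, Lef1 at 1.43 and 1.40, Tox at 0.819 and 1.19, Tbx21 at 1.02 and 0.613 and Eomes at 0.973 and 0.545. Satb1 stood at 7.17 and 7.49 CPM. Macrophages did carry Bach2 at 38.0 and 43.6 CPM, Batf at 14.1 and 10.9 CPM and Klf2 at 135 and 88.3 CPM, so for these 3 genes a UMI does not by itself mark a lymphocyte. In CD8 T cells, Tcf7 was 21.3-fold (95% interval 10.2 to 43.8) above macrophages in the Control and 24.1-fold (11.9 to 48.5) in the Sitagliptin library, and Tox was 85.4-fold (47.6 to 161) and 93.1-fold (63.6 to 139) above them. Klf2 was below the macrophage level in CD8 T cells, at 0.453-fold (0.326 to 0.615) and 0.226-fold (0.143 to 0.339).

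Across lymphocyte classes, Tcf7, the best known of the memory factors, was lowest in CD8 T cells among the 3 classes with at least 50 cells per library. The Control library had 21.9 CPM in CD8 T cells, 54.5 in NK cells and 54.9 in T cells without Cd4 or Cd8, and the Sitagliptin library had 15.6, 77.3 and 90.8 CPM. NK cells thus held 2.49-fold (1.12 to 5.54) the Tcf7 of CD8 T cells in the Control and 4.96-fold (2.77 to 9.21) in the Sitagliptin library. The ratios of NK cells to T cells without Cd4 or Cd8 had intervals that hold 1 (0.992-fold, 0.456 to 2.11, and 0.852-fold, 0.546 to 1.32). NK and T cell classes can share barcodes, and intervals between them take the classes as separate. Bach2 and Satb1 followed the same order: NK cells held 1.41-fold (1.01 to 1.95) and 1.76-fold (1.44 to 2.14) the Bach2 of CD8 T cells, and 1.51-fold (1.15 to 1.95) and 1.67-fold (1.41 to 1.98) the Satb1. Lef1 was higher in T cells without Cd4 or Cd8 than in CD8 T cells, by 2.66-fold (1.69 to 4.21) and 1.62-fold (1.18 to 2.23).

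Eomes showed the widest step between these classes, and Tox ran the other way. NK cells held 109 and 95.2 CPM of Eomes against 14.6 and 10.4 CPM in CD8 T cells, ratios of 7.48 (3.53 to 17.3) and 9.15 (4.79 to 18.9). Its paralog Tbx21 did not separate NK cells from CD8 T cells, with ratios of 1.38 (0.719 to 2.54) and 0.720 (0.453 to 1.11). Tox was lower in NK cells than in CD8 T cells, at 0.390-fold (0.149 to 0.866) and 0.501-fold (0.320 to 0.758), and T cells without Cd4 or Cd8 had about as much as CD8 T cells (70.2 against 69.9 CPM and 98.0 against 111 CPM). Batf was lower in NK cells than in CD8 T cells, at 0.465-fold (0.117 to 1.36) in the Control and 0.381-fold (0.166 to 0.779) in the Sitagliptin library.

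Tox2 was close to undetected. CD8 T cells had 0 UMIs in the Control library, which allows up to 4.37 CPM (3 counts), and 4 UMIs in 3 cells in the Sitagliptin library (3.46 CPM, 0.944 to 8.87). No Tox2 UMI was found in NK cells or in T cells without Cd4 or Cd8 of either library. The paralog pair is therefore described by Tox alone.

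CD4 and regulatory T cells were too few for a ratio between libraries. Batf was detected in 5 of 8 Control and 5 of 14 Sitagliptin CD4 T cells (217 CPM, 87.2 to 447, and 177 CPM, 91.3 to 308), and in 5 of 7 and 2 of 14 regulatory T cells. Tcf7 had 2 UMIs in the CD4 T cells of each library and 0 in regulatory T cells, where 3 counts would be 96.4 and 29.3 CPM. Tox had 3 and 15 UMIs in CD4 T cells and likewise 3 and 15 in regulatory T cells. Klf2 had 3 and 23 UMIs in regulatory T cells, 19 of the latter in 1 cell, and 0 in CD4 T cells. Eomes had no UMI in any CD4 or regulatory T cell.

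**Figure D1:**
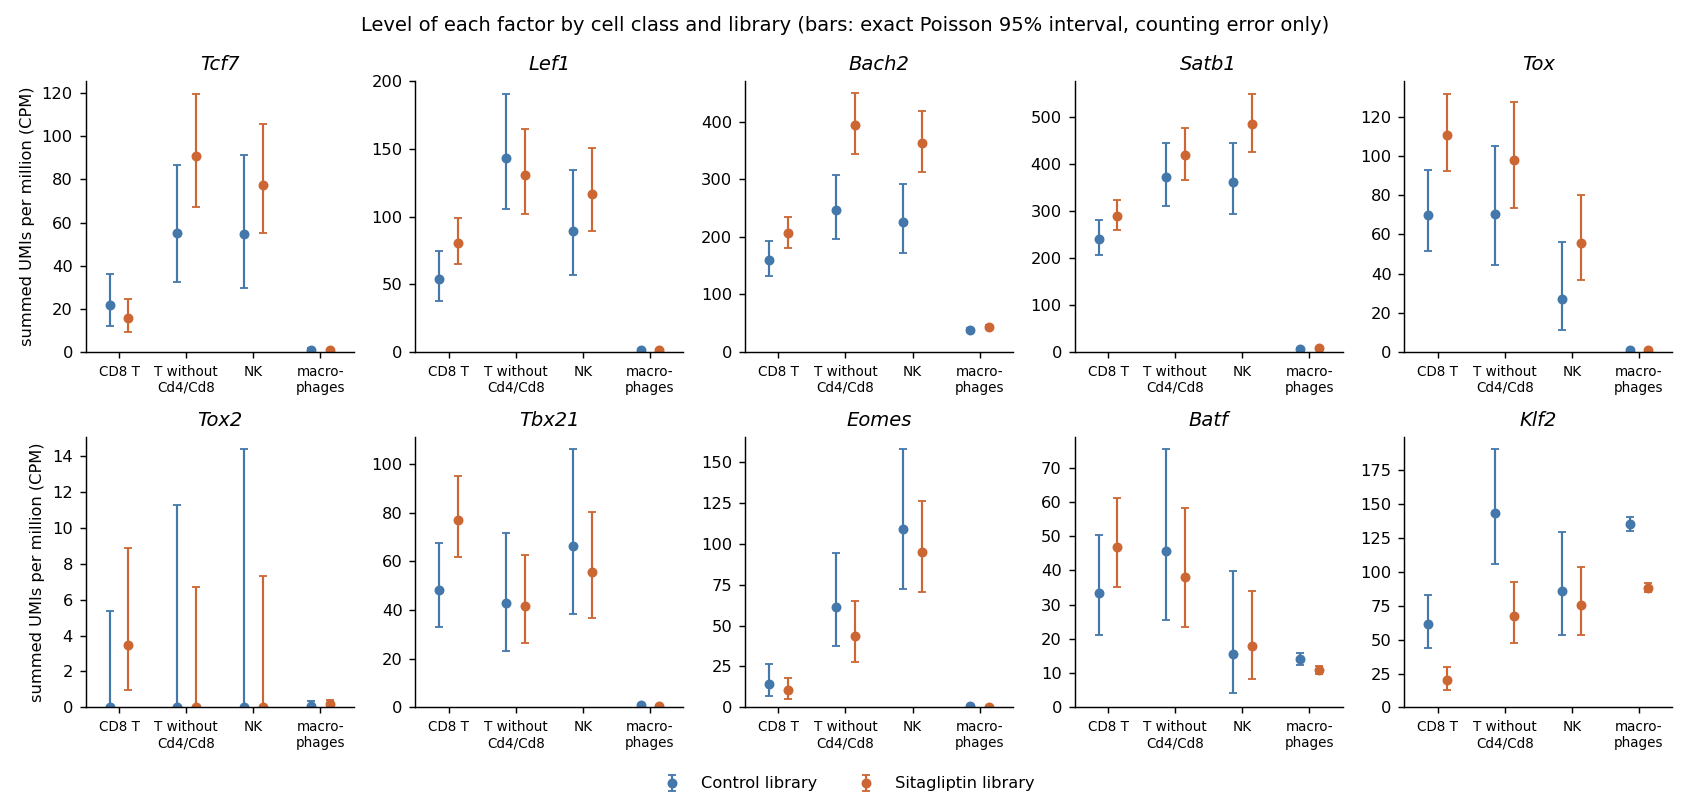
Level of each of the 10 factors, as UMIs per 1000000 of the class (CPM, linear axis from 0), in CD8 T cells, T cells without Cd4 or Cd8, NK cells and macrophages of the Control (blue) and Sitagliptin (orange) libraries, with exact Poisson 95% intervals. Tcf7, Bach2, Satb1 and Eomes lie lower in CD8 T cells than in the other lymphocyte classes, and Klf2 is the factor with its macrophage level (135 and 88.3 CPM) above that of CD8 T cells.

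In CD8 T cells, Tox and Tbx21 were higher in the Sitagliptin library, Klf2 was lower, and Lef1, Bach2 and Satb1 had smaller ratios above 1. Tox, the exhaustion factor, was counted 48 times in 28 of 166 Control cells (69.9 CPM, 51.6 to 92.7) and 128 times in 62 of 274 Sitagliptin cells (111 CPM, 92.5 to 132), a ratio of 1.59 (1.13 to 2.26). Tbx21, the effector factor, was counted 33 times in 30 Control cells (48.1 CPM, 33.1 to 67.5) and 89 times in 73 Sitagliptin cells (77.1 CPM, 61.9 to 94.9), a ratio of 1.60 (1.06 to 2.47). Both intervals lay above 1. In the stricter class of CD8 T cells with 0 macrophage UMIs, both ratios were 1.34, under the 1.5-fold mark. Tox was also under it as a mean of per-cell CPM (1.46), and Tbx21 with no limit on macrophage UMIs (1.25).

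Among all CD8 T cells, a larger share of Sitagliptin than of Control cells carried each of these genes. With each cell thinned to 2000 UMIs, so that depth is equal, 9.04% of Control and 16.8% of Sitagliptin CD8 T cells had a Tox UMI, and 8.43% and 16.8% had a Tbx21 UMI. Over 10 further random thinnings the share for Tox lay between 8.43% and 12% in the Control and between 13.5% and 17.2% in the Sitagliptin library, and that for Tbx21 between 7.23% and 12.7% and between 12.8% and 16.8%. Unthinned shares were 16.9% and 22.6% for Tox and 18.1% and 26.6% for Tbx21, against 0.606% and 0.972% of the deeper macrophages for Tox and 0.720% and 0.530% for Tbx21. Outside the cell cycle Tbx21 stood at 45.9 and 94.8 CPM (ratio 2.07, 1.19 to 3.77), and in cycling CD8 T cells at 50.6 and 53.9 CPM (1.07, 0.554 to 2.12). The difference between these states was not tested. The share of thinned cells outside the cell cycle was 8.57% and 16.9% for Tbx21 and 10.5% and 18.5% for Tox. In cycling cells it was 14.8% and 10.6% for Tbx21 and 14.8% and 12.9% for Tox, with medians over 10 further thinnings of 9.84% and 8.24% and of 13.1% and 13.5%, so no order is read there. The Tox ratios were 1.55 (0.975 to 2.53) outside the cell cycle and 1.64 (0.985 to 2.81) in it, where 3 Sitagliptin cells held 28 of 57 UMIs.

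Tcf7 was rare among CD8 T cells of both libraries. It was counted 15 times in 13 of 166 Control cells (7.83%) and 18 times in 14 of 274 Sitagliptin cells (5.11%), with no cell above 2 UMIs, against 0.720% and 0.501% of the deeper macrophages. The ratio of 0.714 had an interval of 0.340 to 1.52, so a difference in either direction was not detectable at this depth. Its paralog Lef1 had 37 UMIs in 33 Control cells (53.9 CPM) and 93 UMIs in 61 Sitagliptin cells (80.6 CPM), a ratio of 1.49 (1.01 to 2.25). The difference lay mostly in UMIs per positive cell, 1.12 against 1.52, since 19.9% and 22.3% of cells carried Lef1 (macrophages 0.985% and 1.18%).

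Bach2 and Satb1, the other memory-side factors, were detected in 39.2% and 42.7% and in 51.2% and 57.7% of CD8 T cells, against 21.0% and 26.3% and 4.24% and 5.30% of macrophages. Bach2 stood at 160.2 and 206 CPM (ratio 1.29, 1.02 to 1.63) and Satb1 at 240.4 and 289 CPM (1.2, 0.996 to 1.46). Both were lower in cycling than in non-cycling CD8 T cells of the same library. Cycling cells held 0.570-fold (0.372 to 0.860) and 0.753-fold (0.572 to 0.987) the Bach2 of non-cycling cells, and 0.652-fold (0.466 to 0.905) and 0.705-fold (0.558 to 0.886) the Satb1.

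Batf and Eomes did not separate the libraries in CD8 T cells. Batf stood at 33.5 and 46.8 CPM (23 and 54 UMIs, ratio 1.40, 0.842 to 2.38). Eomes stood at 14.6 and 10.4 CPM (10 and 12 UMIs, ratio 0.714, 0.283 to 1.84).

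Klf2 had the lowest ratio of the 9 measured factors in CD8 T cells, and a few cells held much of its Control level. It was counted 42 times in 23 of 166 Control cells (61.2 CPM, 44.1 to 82.7) and 23 times in 19 of 274 Sitagliptin cells (19.9 CPM, 12.6 to 29.9), a ratio of 0.326 (0.187 to 0.554). In the Control library, 20 of the 42 UMIs sat in 3 cells, the top ones with 10 and 8 UMIs and both in the cell cycle, while no Sitagliptin cell had more than 3. Without the top barcode of each library the ratio was 0.363 (0.197 to 0.655), with the Control cell of 8 UMIs still counted. The ratio without both high Control cells was not computed. Outside the cell cycle the levels were 40.5 and 27.5 CPM (15 and 18 UMIs), and the ratio of 0.680 had an interval that holds 1 (0.324 to 1.45). Among cycling CD8 T cells they were 85.4 and 9.99 CPM (27 UMIs in 10 of 61 cells and 5 UMIs in 5 of 85).

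The share of cells with Klf2 was 13.9% and 6.93% on full counts, below the 38.5% and 32.5% of macrophages, and varied with the thinning. One thinning gave 4.82% and 4.38%, and 10 further ones gave 3.61% to 9.04% in the Control and 2.55% to 4.74% in the Sitagliptin library. In macrophages the Klf2 ratio was 0.654 (0.619 to 0.691), and in NK cells 0.880 (0.507 to 1.56). In T cells without Cd4 or Cd8 it was 0.468 (0.296 to 0.736), but 1 Control cell held 29 of 47 UMIs, and without the top barcode of each library it was 0.954 (0.512 to 1.82). For macrophage RNA in the CD8 class, the values depended on the genes summed. A list of 10 macrophage-abundant genes, chosen after the values were seen and sharing Fcer1g and Tyrobp with NK cells, summed to 1859 and 797 CPM in CD8 T cells with all 10 detected, and Lyz2 to 237 and 105 CPM, whereas the 8 macrophage genes of the class limit summed to 91.8 and 93.6 CPM. At the ratio of Klf2 to Lyz2 in macrophages, the Lyz2 in CD8 T cells would go with 4.66 of the 42 Control and 2.97 of the 23 Sitagliptin Klf2 UMIs. In CD8 T cells with 0 macrophage UMIs the Klf2 ratio was 0.290. The part of macrophage RNA, of the cell cycle state and of the few high cells in the Klf2 ratio was not tested.

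**Figure D2:**
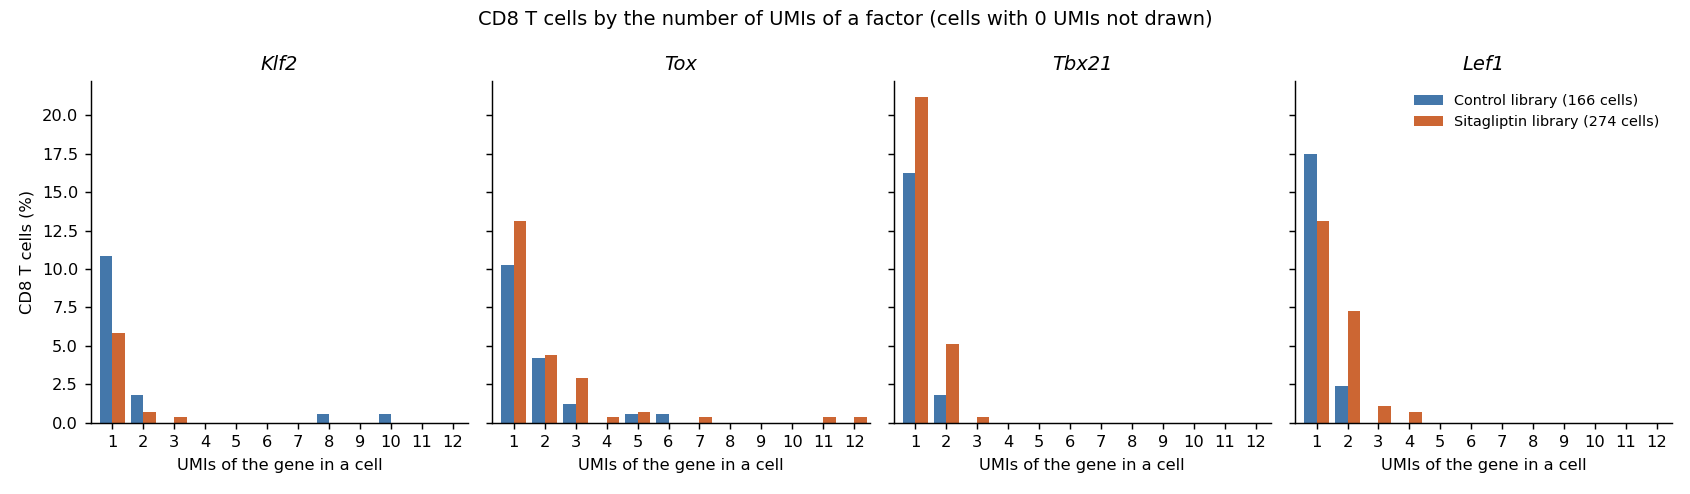
Share of CD8 T cells (%, axis from 0) by the number of UMIs of Klf2, Tox, Tbx21 and Lef1 in the cell, for 166 Control cells (blue) and 274 Sitagliptin cells (orange), with cells at 0 UMIs left out. The Control cells with 8 and 10 Klf2 UMIs stand apart, Tox reaches 12 UMIs in 1 Sitagliptin cell, and Tbx21 differs mainly in cells with 1 or 2 UMIs.

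Of the 10 factors, 9 had at least 20 UMIs over both libraries in CD8 T cells, and 3 of these passed 1.5-fold, against 20.6% of the 7594 genes with as many UMIs. Tox and Tbx21 were past it in the higher direction (7.86% of all genes) and Klf2 in the lower (12.8%). A ratio above 1 was found for 6 of the 9, against 42.8% of all genes, and the median log2 ratio of the 9 was 0.36 against -0.07. With so few members these counts describe the list only.

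**Figure D3:**
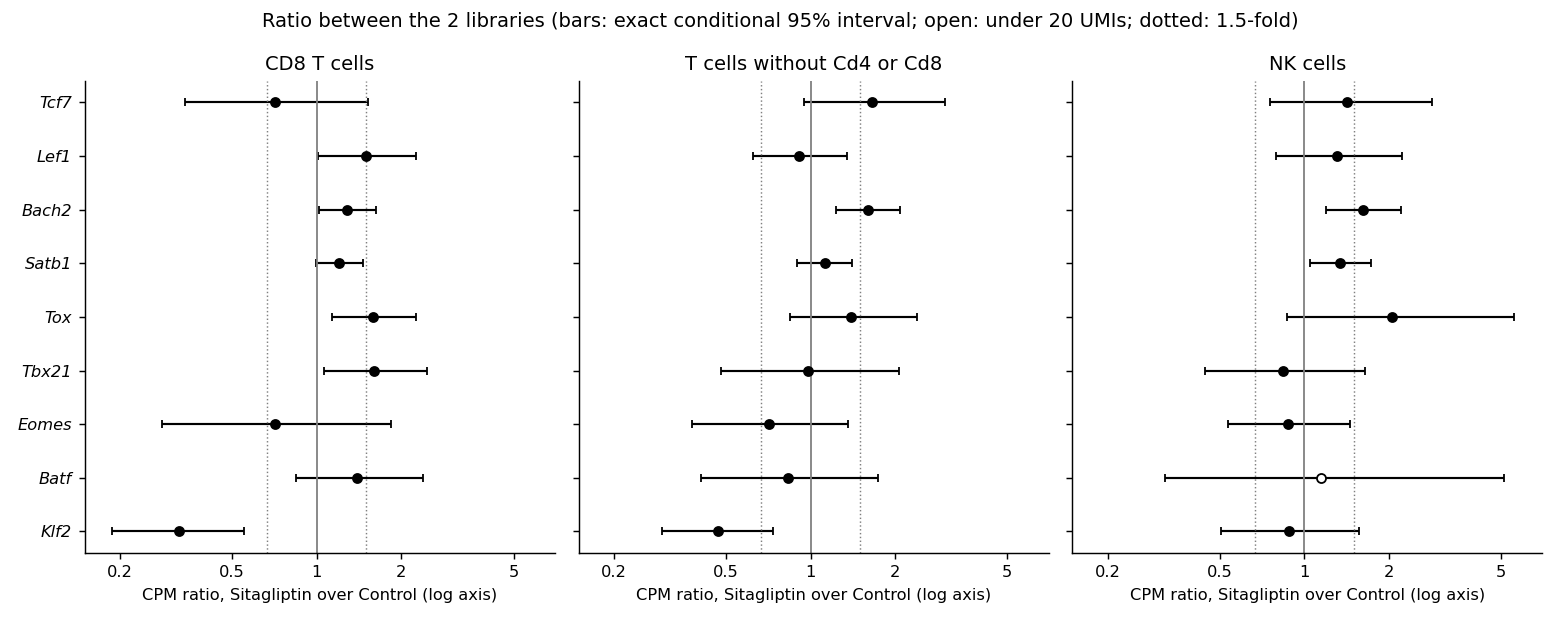
Ratio of CPM, Sitagliptin over Control, on a log axis for 9 factors in CD8 T cells, T cells without Cd4 or Cd8 and NK cells, with exact conditional 95% intervals, a solid line at 1 and dotted lines at 1.5-fold. Bach2 (1.29, 1.59 and 1.61), Satb1 and Tox lie right of 1 in all 3 classes. Klf2 (0.326, 0.468 and 0.880) and Eomes lie left of 1 in all 3, while Tcf7, Lef1, Tbx21 and Batf change sides between classes. For the Klf2 value of 0.468, 1 Control cell held 29 of 47 UMIs. Tox2 is not drawn, and the open point marks fewer than 20 UMIs.

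NK cells of the Sitagliptin library had more Bach2 and Satb1. Bach2 was counted 58 times in 31 of 60 Control NK cells (226 CPM, 171 to 292) and 183 times in 81 of 105 Sitagliptin NK cells (363 CPM, 312 to 419), a ratio of 1.61 (1.19 to 2.20). Satb1 stood at 362 and 484 CPM (1.34, 1.05 to 1.72). Tox, low in NK cells, had 7 UMIs in 6 cells and 28 UMIs in 23 cells (27.2 and 55.5 CPM), a ratio of 2.04 with an interval of 0.870 to 5.53.

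The other factors did not separate the NK cells of the 2 libraries beyond counting error. Tcf7 stood at 54.5 and 77.3 CPM (1.42, 0.754 to 2.83) and Lef1 at 89.5 and 117 CPM (1.31, 0.795 to 2.22). Tbx21 had a ratio of 0.839 (0.444 to 1.63), Eomes 0.873 (0.537 to 1.45) and Klf2 0.880 (0.507 to 1.56), and Batf had 4 and 9 UMIs. Cycling NK cells were 8 of 60 and 20 of 105, and without them the Tcf7 ratio was 2.14 (1.03 to 4.86), that of Bach2 1.93 (1.39 to 2.72) and that of Tox 2.85 (1.05 to 9.63).

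In NK cells, 2 of the 8 factors with at least 20 UMIs passed 1.5-fold, against 25.9% of 5031 genes. Both were higher (14.8% of all genes) and 0 were lower (11.1%). The median log2 ratio of the 8 was 0.40 against -0.01 for all genes, and 5 of the 8 had a ratio above 1, against 49.3% of all genes. With a gate of 5 NK marker UMIs, which left 26 and 55 cells, the median of the factors was -0.07, and that of all genes was not computed.

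In T cells without Cd4 or Cd8, which can share barcodes with NK cells, Bach2 was also higher in the Sitagliptin library. It stood at 247 and 394 CPM (81 and 217 UMIs, ratio 1.59, 1.23 to 2.08). Tcf7 was counted 18 times in 14 of 77 Control cells and 50 times in 40 of 126 Sitagliptin cells (54.9 and 90.8 CPM, ratio 1.65, 0.947 to 3.01). The makeup of this class differed between libraries in Trdc, at 61.0 and 25.4 CPM, and the part of this in the ratios was not tested. Lef1 (ratio 0.911, 0.622 to 1.35), Satb1 (1.12, 0.897 to 1.41), Tox (1.40, 0.843 to 2.38), Tbx21 (0.977, 0.482 to 2.05), Eomes (0.714, 0.378 to 1.36) and Batf (0.833, 0.409 to 1.74) had intervals that hold 1. Of the 9 factors with enough UMIs, 3 passed 1.5-fold, against 23.6% of 5583 genes. Tcf7 and Bach2 were higher (11.5% of all genes) and Klf2 lower (12.1%). Without the barcode of most UMIs in each library the Klf2 ratio was 0.954 (0.512 to 1.82), so its call ended, while Tcf7 (1.86) and Bach2 (1.60) passed 1.5-fold. With 0 macrophage UMIs per cell the Tcf7 ratio was 1.41 (0.737 to 2.83) and that of Bach2 1.38 (1.03 to 1.88). In all, 4 of the 9 had a ratio above 1, against 47.2% of all genes. The median log2 ratio was -0.03, the same as that of all genes.

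In a single thinning, more of the factors were detected per cell in lymphocytes of the Sitagliptin library, and not in macrophages. The number of all genes detected per cell at this depth is not given here, so the difference is not read as particular to the factors. At 2000 UMIs per cell, a CD8 T cell had on average 1.06 of the 10 factors detected in the Control and 1.32 in the Sitagliptin library. NK cells had 1.65 and 2.17, T cells without Cd4 or Cd8 had 1.68 and 1.99, and macrophages had 0.329 and 0.286. CD8 T cells without any of the 10 were 35.5% (59 of 166) and 23.0% (63 of 274).

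Within CD8 T cells, Tcf7 was found with Bach2 in both libraries. The pairs described here were picked after all pairs of the 10 factors had been computed. On full counts, 10 of 13 Tcf7-positive Control cells held Bach2 (76.9%, 46.2 to 95) against 35.9% (28.4 to 44.1) of the others. In the Sitagliptin library 10 of 14 did (71.4%, 41.9 to 91.6), against 41.2% (35.1 to 47.4). The intervals overlap in the Sitagliptin library and do not in the Control library. The share was higher in Tcf7-positive cells in each of 10 thinnings to 2000 UMIs in both libraries, but these draw from the same cells. Tcf7 and Lef1, the paralogs, overlapped in 7 of 14 Tcf7-positive Sitagliptin cells (interval 23.0% to 77.0%, against 20.8% of the others) and in 3 of 13 Control cells (23.1%, 5.04 to 53.8, against 19.6%).

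Tox and Tcf7, the markers of the exhausted and the stem-like state, were found together in few CD8 T cells. In a single thinning, 2 of 15 Tox-positive Control cells (13.3%, 1.66 to 40.5) and 0 of 46 Tox-positive Sitagliptin cells held Tcf7, the latter allowing a share of up to 7.71%. That zero rested on the draw. On full counts 2 of 28 (7.14%, 0.877 to 23.5) and 6 of 62 (9.68%, 3.63 to 19.9) Tox-positive cells held Tcf7, against 7.97% and 3.77% of Tox-negative cells, and the medians of 10 further thinnings were 6.07% and 4.60%. The intervals in Tox-positive and Tox-negative cells overlap, so neither exclusion nor co-expression of Tox and Tcf7 was detectable at this depth.

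In the Sitagliptin library, Lef1-positive CD8 T cells had lower shares with Tox and with Tbx21 than Lef1-negative cells. Of 61 Lef1-positive Sitagliptin CD8 T cells, 7 held Tox (11.5%, 4.74 to 22.2) against 25.8% (20.1 to 32.2) of 213 Lef1-negative cells, and 8 held Tbx21 (13.1%, 5.84 to 24.2) against 30.5% (24.4 to 37.2). The intervals overlap for Tox and do not for Tbx21. Both shares were lower in Lef1-positive cells in each of 10 thinnings, which draw from the same cells and are no independent check. In the Control library, 5 of 33 Lef1-positive cells held Tox (15.2% against 17.3%) and 7 held Tbx21 (21.2% against 17.3%), and the thinnings went either way. Whether the libraries differ in this was not tested.

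The shares with Satb1 on full counts were higher in Bach2-positive than in Bach2-negative CD8 T cells, but the intervals overlap in both libraries. Among Sitagliptin CD8 T cells Satb1 was found in 65.8% (56.5 to 74.3) of Bach2-positive and 51.6% (43.5 to 59.6) of Bach2-negative cells. Among Control cells it was found in 55.4% (42.5 to 67.7) and 48.5% (38.4 to 58.7). Depth was not equal between these cells, so co-expression of Satb1 and Bach2 is not read from these counts. Tox and Tbx21 occurred together in 20 of 62 Tox-positive Sitagliptin cells (32.3%, 20.9 to 45.3, against 25.0%) and in 5 of 28 Control cells (17.9% against 18.1%). No Sitagliptin CD8 T cell held both Tbx21 and Eomes (0 of 73 Tbx21-positive cells, upper bound 4.93%). Eomes was in 12 of 201 Tbx21-negative Sitagliptin cells (5.97%, 3.12 to 10.2). In the Control library, 3 of 30 Tbx21-positive and 5 of 136 Tbx21-negative CD8 T cells held Eomes. The intervals of Tbx21-positive and Tbx21-negative cells overlap in both libraries, so neither exclusion nor co-expression of Tbx21 and Eomes is read from these counts. In NK cells of the Sitagliptin library, 25 of 27 Tcf7-positive cells held Bach2 (92.6%, 75.7 to 99.1, against 71.8%). Of the same 27 cells, 10 held Tox (37.0%, 19.4 to 57.6, against 16.7%). Of 10 Control Tcf7-positive NK cells 4 held Bach2, against 31 of all 60 Control NK cells, so Bach2 was not more frequent there. Tox was in 0 of these 10 cells, with an upper bound of 30.8%, and in 6 of 50 Tcf7-negative Control NK cells. So few cells do not tell these shares of Tox apart.

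**Figure D4:**
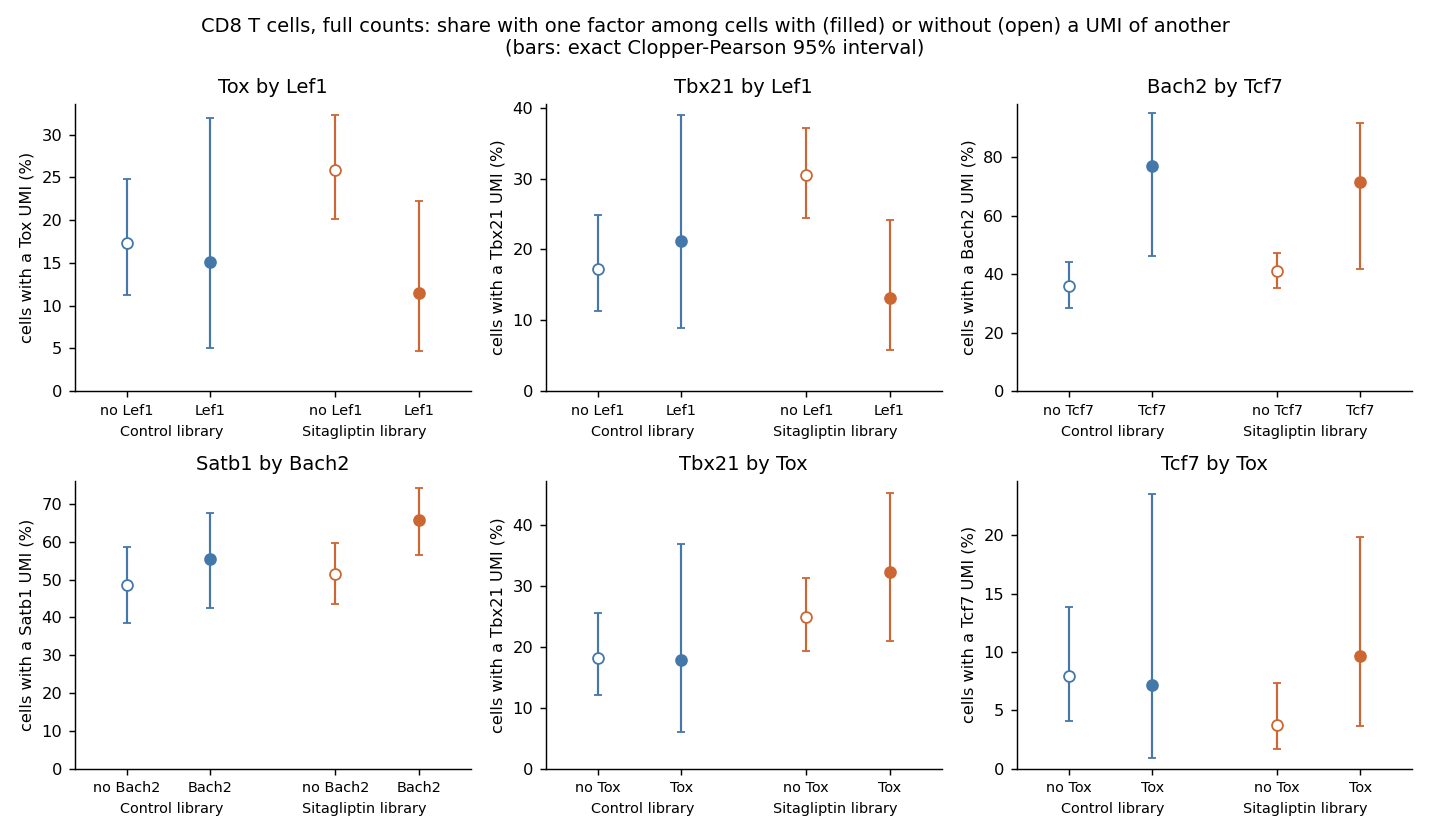
Share of CD8 T cells (%, axis from 0) with a UMI of one factor among cells with (filled) and without (open) a UMI of another, on full counts, for the Control (blue) and Sitagliptin (orange) libraries, with exact Clopper-Pearson 95% intervals. The 6 pairs were picked after the values were seen. Bach2 stands higher in Tcf7-positive cells of both libraries, with overlapping intervals in the Sitagliptin library. Tox and Tbx21 stand lower in Lef1-positive cells of the Sitagliptin library, with overlapping intervals for Tox.

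The cells with a factor also differed in genes that the factor list does not hold. Tcf7-positive CD8 T cells, 6 and 8 cells in a single thinning, had less of the 13 effector genes (granzymes, perforin and the like): the summed level was 0.237-fold (0.163 to 0.334) that of Tcf7-negative cells in the Control and 0.342-fold (0.251 to 0.455) in the Sitagliptin library, and 10 further thinnings gave medians of 0.368 (lowest 0.229, highest 0.453) and 0.554 (0.304 to 0.705), both more than 1.5 times the single values. The 16 exhaustion genes stood at 0.810-fold (0.516 to 1.21) and 0.361-fold (0.186 to 0.634), with medians of 0.782 and 0.499 over the further thinnings. Bach2-positive cells, 41 and 76, had 0.536-fold (0.489 to 0.586) and 0.605-fold (0.561 to 0.651) the effector level of Bach2-negative cells (0.558 and 0.670 over the further thinnings), and 1.19-fold (0.946 to 1.5) and 1.27-fold (1.08 to 1.48) the level of the 15 memory genes.

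Tox-positive CD8 T cells had less of the effector genes as well, while their level of the exhaustion genes did not differ beyond counting error. In the 15 Control and 46 Sitagliptin Tox-positive cells the effector level was 0.545-fold (0.469 to 0.630) and 0.783-fold (0.719 to 0.852) that of Tox-negative cells (0.584 and 0.729 over the further thinnings), and the exhaustion level was 1.11-fold (0.873 to 1.40) and 0.972-fold (0.825 to 1.14). Lef1-positive cells differed between the libraries in a single thinning, with 1.5-fold (1.38 to 1.64) the effector level in the Control and 0.8-fold (0.733 to 0.872) in the Sitagliptin library. The 10 further thinnings gave 1.28 to 1.66 and 0.923 to 1.19, so the second value rested on the draw. Intervals of such sums take UMIs as independent and leave out the variation between cells, which is wider.

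Other genes of memory and exhaustion gave the setting of these differences in CD8 T cells. Of the 16 exhaustion genes, all with at least 20 UMIs, 15 were lower in the Sitagliptin library, and their median log2 ratio was -0.38 against -0.07 for all genes. Nr4a3, an early response nuclear receptor gene, was the other one (130 and 197 CPM, 1.52, 1.19 to 1.97). The checkpoint receptor gene Havcr2 (TIM-3) stood at 401 and 330.0 CPM (0.824, 0.704 to 0.966), Rbpj, a Notch pathway factor, at 339 and 304 CPM (0.896, 0.757 to 1.06), Ctla4 at 268 and 206 CPM (0.769, 0.632 to 0.937) and Pdcd1 (PD-1) at 249 and 176 CPM (0.706, 0.573 to 0.870). Tox, with its ratio of 1.59, lay on the other side of 1 from these 4 genes. Of the 15 memory genes, 12 had enough UMIs, 9 of them higher and 3 lower (median 0.20), with Il7r, the IL-7 receptor, at 223 and 255 CPM (1.14, 0.937 to 1.40) and Foxo1, a forkhead factor that activates Klf2, at 166 and 189 CPM (1.14, 0.903 to 1.44).

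Effector genes were mostly lower, and 12 of 20 other transcription factors were higher, where 42.8% of all genes were higher and the median of all genes was -0.07. Of 13 effector genes, 12 had enough UMIs, 3 higher and 9 lower (median -0.32), with Gzmb, a granzyme, at 4251 and 2672 CPM (0.629, 0.597 to 0.662) and Nkg7, a granule protein gene, at 2348 and 1792 CPM (0.763, 0.715 to 0.815). The other 8 factors were lower (median of the 20 was 0.22), with Hif1a, the hypoxia factor, at 1133 and 1508 CPM (1.33, 1.22 to 1.45) and Stat4, of IL-12 signalling, at 495 and 605 CPM (1.22, 1.07 to 1.39). Cell cycle genes were 1 higher and 9 lower (median -0.21), with ratios of 0.923 for Stmn1 and 0.863 for Top2a. Early response genes, which also mark handling of cells, were 2 higher and 8 lower (median -0.44), with Btg2 at 536 and 419 CPM and Junb, also among the 20 factors, at 436 and 333 CPM. The part of these in the ratios of the 10 factors was not tested.

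In NK cells, where 49.3% of all genes had a ratio above 1 (median -0.01), the cell cycle and early response lists lay on the other side of 1 from CD8 T cells, and the effector list on the same side. Cell cycle genes were higher for all 7 with enough UMIs (median 0.47, Mki67 at 109 and 216 CPM), early response genes were 8 higher and 2 lower (median 0.23), and effector genes 2 higher and 7 lower (median -0.33, Gzmb at 5129 and 3439 CPM). Exhaustion genes were 5 higher and 5 lower (median 0.11) memory genes 5 higher and 4 lower (median 0.16) and other factors 10 higher and 6 lower (median 0.09). In T cells without Cd4 or Cd8, where 47.2% of all genes had a ratio above 1 (median -0.03), memory genes were 8 higher and 3 lower (median 0.21), exhaustion genes 6 higher and 8 lower (-0.17), effector genes 4 higher and 4 lower and other factors 10 higher and 7 lower (0.09). Cell cycle genes there were all 10 lower (-0.34), and early response genes 2 higher and 8 lower (-0.32).

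The genes with patterns most like 4 of the factors were ranked over 12 points, 6 classes in each library, among 2857 genes, by Pearson's r of log2(CPM + 10). The points share libraries, and 4 of them hold only 7 to 14 cells. The second r given for each gene is over the 8 points of at least 50 cells. For Tbx21 these were the NK receptor genes Klrd1 (r 0.97 and 0.85) and Klrk1 (0.95 and 0.70) and then Setbp1 (0.95 and 0.42). For Eomes they were Klra7 (0.97 and 0.95), Klrb1c (0.97 and 0.97) and Sult2b1 (0.96 and 0.98), of which Klra7 and Klrb1c were used to call NK cells. For Tcf7 they were Lgals3bp (0.93 and 0.82), Trim12a (0.89 and 0.81) and Gem (0.88 and 0.79). For Tox they were Arl15 (0.92 and 0.88), Setd3 (0.91 and 0.80) and Arpp19 (0.89 and 0.78).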

How the data were processed

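The authors deposited a table of raw UMI counts by gene and barcode for each library, from the SeekOne DD 5' kit per the labels. The sources used here do not name the aligner, genome build or annotation. The 32285 gene IDs gave 32245 symbols. Scrublet in scanpy 1.11.5 (numpy 2.4.6, scipy 1.17.1, Python 3.11.15) called 0 doublets by its own threshold, so the 6% of barcodes with the highest scores were removed, leaving 8172 and 9180. The libraries held 64139749 and 76788699 UMIs.

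Cells were classed by marker UMIs, cycling cells by 3 UMIs of cell cycle genes, and barcodes with 3 T cell and 3 macrophage UMIs (658 and 585) were left out. UMIs were summed per class and library as CPM with exact Poisson intervals, ratios with exact conditional binomial and shares with Clopper-Pearson intervals, all at 95%. Past the fold means 1.5 or its inverse, in genes with 20 or more UMIs in all and classes of 50 cells per library. Shares were also computed with cells thinned at random to 2000 UMIs. The ratio intervals were tested only on simulated independent Poisson counts. Such counts leave out the gathering of UMIs in few cells, so coverage in that case was not tested. Alternatives changed gates, macrophage limit, doublet removal, totals, cycling cells and minimum UMIs.

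All 10 factors are named, and from each list 1 to 4 of the genes with most UMIs in CD8 T cells; Nr4a3 is named after its value was seen. The factors and lists were chosen with earlier results of these data known. Co-detection on full counts, pairs with fewer than 20 positive cells, splits by Bach2 and Lef1 and the 10 further thinnings were added after the data were seen.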

Additional observations from a re-analysis of the deposited data

Results flagged for a closer look

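The ratio between libraries lay on different sides of 1 in different classes for 2 factors, with at least 1 of the ratios past 1.5-fold. Tcf7 had a ratio of 0.714 in CD8 T cells and 1.65 in T cells without Cd4 or Cd8, with intervals of 0.340 to 1.52 and 0.947 to 3.01 that both hold 1. Tbx21 had a ratio of 1.60 in CD8 T cells (1.06 to 2.47) and 0.977 in T cells without Cd4 or Cd8 (0.482 to 2.05). Against NK cells, where Tbx21 had a ratio of 0.839 (0.444 to 1.63), the CD8 value of 1.60 stood likewise on the other side. The intervals of each pair overlap. These differences between classes were not tested, as each diet had 1 library.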

How the results depend on the processing

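No ratio past 1.5-fold in CD8 T cells, NK cells, all T cells or T cells without Cd4 or Cd8 moved to the other side of 1 under the alternatives. Of 385 recomputed factor ratios in these classes, 377 stayed within the counting interval of the reported value. In CD8 T cells, 5 in place of 3 factors passed 1.5-fold with a gate of 5 T cell UMIs. In NK cells, 1 in place of 2 passed with a gate of 5 NK marker UMIs and with a minimum of 50 UMIs, and 4 with the mean of per-cell CPM. The share of all genes past 1.5-fold was not computed under these settings, so the changed counts are not read as particular to the factors. The share of Tox-positive Sitagliptin CD8 T cells with Tcf7 was 9.68% on full counts and 0% in a single thinning, a value that rested on the draw. Klf2 in CD8 T cells ranged from 0.290, with 0 macrophage UMIs, to 0.680, without cycling cells. Tox there ranged from 1.34 to 1.64 and Tbx21 from 1.25 to 2.07. Bach2 in NK cells ranged from 1.54 to 2.44. In T cells without Cd4 or Cd8, Klf2 ranged from 0.364 to 0.954, the latter without the barcode of most UMIs, Tcf7 from 1.41 to 2.12, Bach2 from 1.37 to 1.95 and Tox from 1.12 to 2.82. The causes were not tested. All alternatives for T cells without Cd4 or Cd8, and in the other classes those without the barcode of most UMIs, without shared barcodes, with a limit on dendritic cell genes and with further thinnings were chosen after seeing the data.

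No paired analysis was possible because each diet has 1 library, and for the same reason no replicate was left out in turn. Depth limits Tcf7, Eomes, Batf and Tox2, which rest on few UMIs per class. The lowest total of a barcode was 2001 UMIs, and cells below that were not analysed here.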
